A study of Mus musculus with 18 samples.

Results

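The interferon-induced GTPases are large GTP-binding proteins of the cell's own defence. The 10 genes described here were taken by name from 3 families: Gbp2, Gbp3 and Gbp7 of the guanylate-binding proteins, Irgm1, Irgm2, Igtp, Iigp1 and Tgtp1 of the immunity-related GTPases, and the myxovirus resistance genes Mx1 and Mx2. All 10 were found among the 35275 genes of the deposited table, and all 10 were among the 13869 genes that passed the filter on low values (0.5 FPM or more in at least 3 libraries). FPM is the number of sequenced fragments of a gene scaled for the size of the library.

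The 18 libraries came from C2C12 cells, an established mouse myoblast line that is grown in serum and forms myotubes after serum is lowered. The labels call this stock PAX7 negative, and all groups share that. Control cells (genotype Wild-type) were set beside cells overexpressing the spliced form of MUNC, a long noncoding RNA from the region upstream of Myod1 (MUNC spliced), and cells overexpressing its genomic form (MUNC genomic). Each was sampled in growth medium with 20% fetal bovine serum at subconfluence (GM) and after 3 days in 2% horse serum (DM3), with 3 biological replicates in each of the 6 groups. The labels name neither the vector nor the promoter, nor whether an overexpressing line was 1 clone or a pool, and they do not say whether the control cells carried an empty vector. They also do not say what separated the replicates, so p-values measure the spread between these libraries, which may be partly technical.

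Interferons bind receptors at the cell surface, Janus kinases phosphorylate STAT proteins there, and STAT and IRF complexes then switch on these GTPase genes from short promoter elements. Type I interferon acts mostly through a complex that holds STAT2 and IRF9 on the interferon-stimulated response element (ISRE), and interferon gamma acts on the gamma-activated site (GAS). Guanylate-binding proteins and immunity-related GTPases coat vacuoles that hold intracellular parasites or bacteria, whereas Mx proteins block the replication of viruses. In muscle cells these genes are usually known as inducible, with low levels when no interferon acts.

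The members lie in clusters, given here for 9 of them on GRCm38 with GENCODE M21 exons. Gbp7 (ENSMUSG00000040253, chr3:142530342-142550149), Gbp3 (ENSMUSG00000028268, chr3:142560026-142573209) and Gbp2 (ENSMUSG00000028270, chr3:142620602-142638008) lie close together on the plus strand of chromosome 3. The gene deposited as Gbp5, called Gbp2b in GENCODE M21, lies between Gbp3 and Gbp2. Irgm1 (ENSMUSG00000046879, chr11:48861968-48871683) and Tgtp1 (ENSMUSG00000078922, chr11:48985327-48994172) lie on the minus strand of chromosome 11. Igtp (ENSMUSG00000078853, chr11:58199556-58207591) and Irgm2 (ENSMUSG00000069874, chr11:58199618-58222782) overlap on its plus strand. Mx1 (ENSMUSG00000000386, chr16:97447035-97462907, minus strand) and Mx2 (ENSMUSG00000023341, chr16:97535308-97560900, plus strand) are neighbours on chromosome 16. Igtp and Irgm2 share 162 exon bases on the same strand, which is 8.01% of the Igtp exons and 4.39% of the Irgm2 exons. Tgtp1 shared 81.2% of its 50-base stretches with other genes, 79.4% with its near-copy Tgtp2, so its reads could be split between the copies and its level is uncertain. For the other 9 members the shared portion was 0.31% to 12.7%, highest for Gbp7, most of it with the overlapping model Gm43802.

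The RefSeq promoter table (GRCm38.p6; 250 bases before to 50 after each start site) held 7 of the 10 members, without Iigp1, Mx1 and Mx2. An ISRE-like match (GAAA, any 2 bases, then GAAA, on either strand) was present in 7 of 7, against 3.44% of all 32851 windows of 300 bases. Members were counted by gene and the background by window. Gbp3 had 2 start sites, and its matches lay in the window of start site 1 only. A GAS-like match (TTCNNNGAA, which reads the same on both strands) was present in 4 of 7, Gbp7, Igtp, Irgm2 and Tgtp1, against 8.3% of all windows. Both kinds together occurred in 0.454% of all windows. The stretches with the matches are shown because all 7 hold the ISRE-like match. Each is written 5′ to 3′ on the strand of its gene, with ISRE-like and GAS-like matches in capitals; on the Gbp genes the ISRE-like match reads in the opposite orientation, as TTTC, 2 bases and TTTC.
Gbp2, chr3:142620594-142620623, plus strand: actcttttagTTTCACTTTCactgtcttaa
Gbp3, chr3:142559934-142560025, plus strand: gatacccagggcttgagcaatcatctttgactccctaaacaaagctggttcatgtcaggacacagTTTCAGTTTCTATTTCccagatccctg
Gbp7, chr3:142530226-142530326, plus strand: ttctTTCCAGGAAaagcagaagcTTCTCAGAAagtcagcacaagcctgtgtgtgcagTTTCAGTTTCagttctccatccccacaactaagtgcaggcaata
Irgm1, chr11:48871428-48871457, minus strand: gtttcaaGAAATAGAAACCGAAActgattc
Irgm2, chr11:58214867-58214967, plus strand: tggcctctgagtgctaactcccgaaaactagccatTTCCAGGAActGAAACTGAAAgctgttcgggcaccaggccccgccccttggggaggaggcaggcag
Igtp, chr11:58199446-58199546, plus strand: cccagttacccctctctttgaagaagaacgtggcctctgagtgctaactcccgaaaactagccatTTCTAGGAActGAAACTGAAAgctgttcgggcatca
Tgtp1, chr11:48992259-48992356, minus strand: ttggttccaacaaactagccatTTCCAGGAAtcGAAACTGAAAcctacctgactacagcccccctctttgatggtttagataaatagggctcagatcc

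Gbp3 and Irgm1 each held 2 ISRE-like matches that overlap, printed as 1 run of capitals. In Igtp, Irgm2 and Tgtp1 the GAS-like match ended 2 bases before the ISRE-like match, whereas in Gbp7 the 2 GAS-like matches ended 44 and 25 bases before it. The printed Igtp and Irgm2 stretches aligned over 71 bases with 69 identical (97.2%). The Gbp2 stretch overlapped a GENCODE exon by 22 of its 30 bases, and the Irgm1 stretch lay within an exon of a longer Irgm1 transcript. The Irgm2 stretch lay within an intron of a longer Irgm2 transcript, and the Tgtp1 stretch within introns of longer models of Tgtp1 and Olfr56. A match is a run of letters and not a measured binding site.

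**Figure D1:**
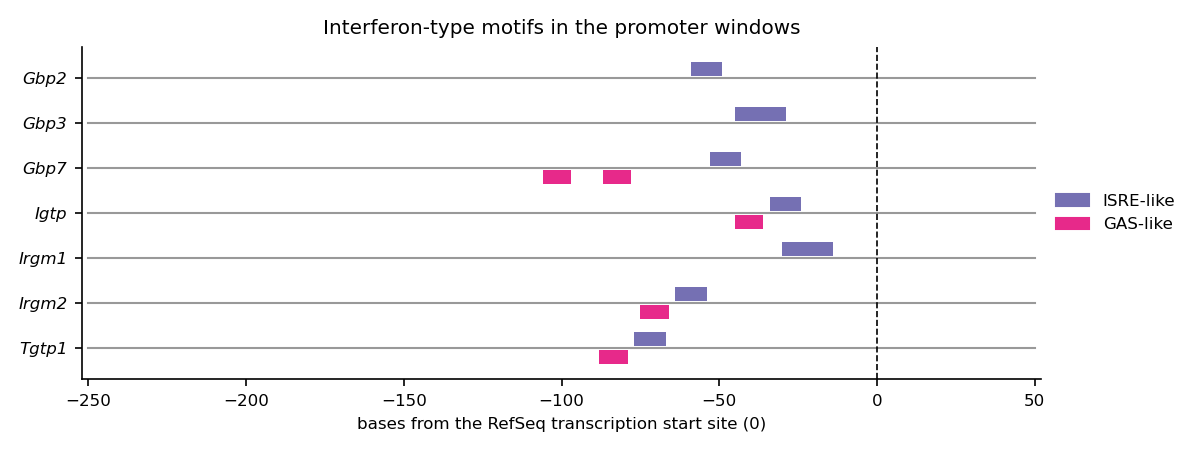
Position of ISRE-like (GAAA, 2 bases, GAAA) and GAS-like (TTCNNNGAA) matches in the RefSeq promoter windows of the 7 members in the table, in bases from the transcription start site (0) on the strand of the gene. Every ISRE-like match lies between -77 and -15, and the GAS-like matches of Igtp, Irgm2 and Tgtp1 stand directly beside one.

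Depth, recovered from the table as whole reads, was 38416702 to 68788327 reads per library, and replicates correlated at r of 0.980 to 0.996 over all tested genes. MUNC itself was not analysed here. Of the myogenic markers, Des, Myf5, Cdh15 and Chrna1 were present in all 18 libraries, but Myod1 was at 0 to 0.221 FPM and Myog at 0 to 0.434 FPM in the 6 control libraries, also in DM3. Of 9 leukocyte and macrophage markers 8 were found, and their summed level was 2.42 to 6.36 FPM over the 18 libraries, with Cd3e at 0 and Ptprc at 0.328 FPM or less in all 18. The 4 endothelial markers summed to 4.01 to 7.62 FPM in MUNC genomic cells and to 0.25 to 1.72 FPM in the others, with Kdr at 0.0252 FPM or less in all 18. Cdh5 made up nearly all of the sum in MUNC genomic cells, whereas Tek led in MUNC spliced cells, at 0.733 to 1.56 FPM. The 4 fibroblast markers summed to 11.3 to 90.7 FPM in GM and 135 to 568 FPM in DM3, with Thy1 at 0.0368 FPM or less. Dcn led them in all DM3 libraries, and Pdgfra in the 3 MUNC genomic GM libraries and control GM replicate 3.

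The step from GM to DM3 in control cells was compared first, since it sets the range in which the MUNC lines were read. It is called differentiation here after the medium, and it changed the serum and its percentage as well. Myog had 10, 22 and 22 reads in control DM3 and 11897, 3017 and 2265 in MUNC spliced DM3. How far the control cells had differentiated was not tested. All 10 GTPase genes rose from GM to DM3, and their summed level went from 187 ± 128 FPM to 2209 ± 794 FPM (SD, n = 3 each). Of all tested genes 29.6% were called higher in this comparison (limma, Benjamini-Hochberg adjusted p under 0.05). The median log2 change of the 10 was 4.41, against 0.02 over all tested genes. The lowest DM3 library lay above the highest GM library for all 10 members, as it did for 31.9% of tested genes. RNA was measured over whole cultures, so more cells with these transcripts and more transcript per cell cannot be told apart. The fibroblast markers Dcn, Lum and Pdgfra and the myogenic markers Des, Chrna1, Cdh15 and Myf5 also rose, Lyz2 fell, and their part was not tested.

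The guanylate-binding proteins rose together. Gbp2, which gathers on pathogen vacuoles, was at 5.51, 16.2 and 2.52 FPM in the control GM libraries and at 139, 109 and 71.8 FPM in control DM3. Gbp3, of the same cluster, went from 4.61, 17.0 and 2.29 FPM to 274, 176 and 122 FPM. Gbp7 went from 8.60, 33.6 and 3.26 FPM to 390, 280 and 197 FPM. GM replicate 2 was the highest and replicate 3 the lowest GM library for all 3 genes, and even so no GM value came within the DM3 range. The log2 changes were 3.82 ± 0.479 for Gbp2, 4.71 ± 0.474 for Gbp3 and 4.64 ± 0.562 for Gbp7 (SE; limma adjusted p = 6.38e-06, 9.21e-07 and 4.84e-06).

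The regulatory immunity-related GTPases, which sit on the cell's own membranes and restrain the effector members, differed in their starting level. Irgm1 was already at 87.9, 114 and 73.0 FPM in control GM and reached 499, 382 and 298 FPM in DM3. Irgm2 went from 10.4, 53.3 and 4.15 FPM to 445, 312 and 235 FPM. Igtp went from 9.36, 30.7 and 2.61 FPM to 346, 205 and 146 FPM. Irgm1 thus had the highest GM level and the smallest rise of the 10, a log2 change of 2.08 ± 0.224, against 4.45 ± 0.646 for Irgm2 and 4.37 ± 0.593 for Igtp (SE; limma adjusted p = 1.63e-06, 2.57e-05 and 1.34e-05).

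Among the effector members Iigp1 (ENSMUSG00000054072, chromosome 18) changed most. This protein, which binds the parasite vacuole and helps to break it, had transcript levels of 7.77, 37.4 and 0.937 FPM in control GM and of 730, 426 and 264 FPM in DM3. Its log2 change of 5.65 ± 0.778 was the largest of the 10 (SE; limma adjusted p = 1.56e-05). Tgtp1, a further effector, went from 1.23, 5.84 and 0.599 FPM to 86.4, 95.7 and 47.2 FPM, a log2 change of 4.68 ± 0.510 (SE; limma adjusted p = 1.82e-06). Of the antiviral pair, Mx1, which acts in the nucleus, went from 0.495, 4.5 and 0.169 FPM to 37.8, 19.8 and 16.7 FPM. Mx2, which acts in the cytoplasm where its protein is made, is typed as a polymorphic pseudogene in GENCODE M21, and protein was not measured. Its transcript went from 2.89, 20.1 and 0.676 FPM to 108, 87.1 and 81.4 FPM. Mx1 and Mx2 both rose, with log2 changes of 3.51 ± 0.478 and 4.17 ± 0.626 (SE; limma adjusted p = 1.37e-05 and 3.55e-05), with GM replicate 2 again highest of its group.

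**Figure D2:**
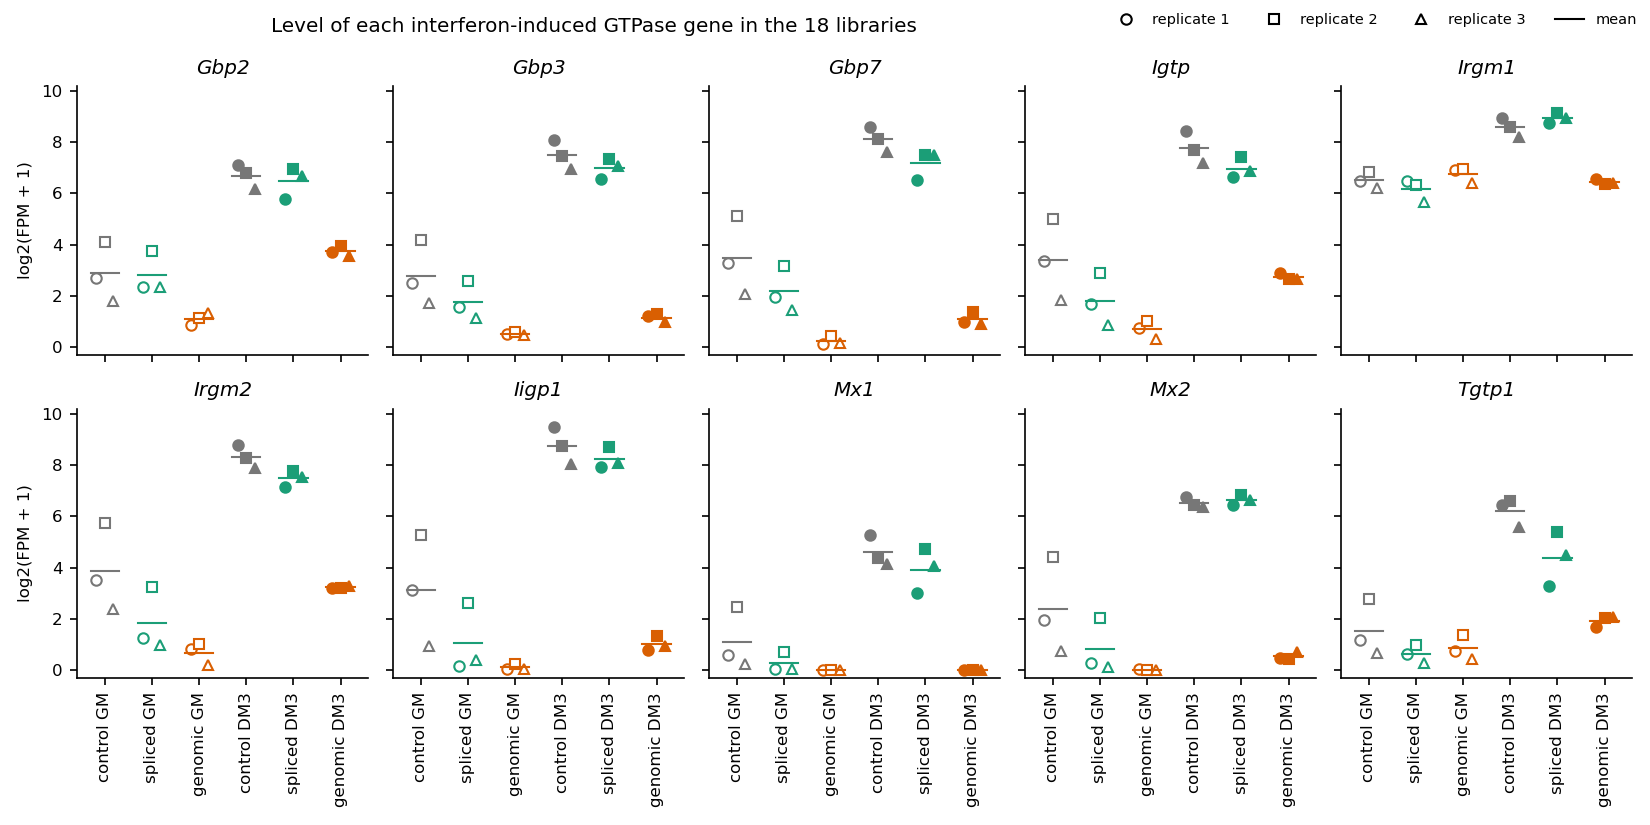
Level of each member in the 18 libraries, as log2(FPM + 1), by group (open symbols GM, filled DM3; the shape gives the replicate and the line the mean). Control and MUNC spliced cells stand high in DM3 for all 10 genes, MUNC genomic cells stand within or below the range of control GM in both media apart from Irgm1 in GM, and Irgm1, at 49.8 FPM or more in every library, is the one member high in all groups.

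Cells overexpressing genomic MUNC had far less of these transcripts after differentiation. All 10 members fell below control in DM3, where 20.9% of tested genes were called lower, with a median log2 difference of -5.06 against -0.01 over all tested genes. Their summed level was 120.2 ± 4.45 FPM, against 2209 ± 794 FPM in control (SD, n = 3 each). The 2 sets of libraries did not overlap for any of the 10, which was also true of 29.1% of tested genes in the lower direction. The markers of leukocytes and macrophages, cells that also express these GTPases, summed to 3.52 to 4.43 FPM in MUNC genomic DM3 and 3.63 to 5.34 FPM in control DM3. The endothelial marker Cdh5 was higher in MUNC genomic DM3, at 3.79 to 4.99 FPM against 0.0368 to 0.237 FPM in control, and was the 1 of 2 tested endothelial markers called higher. Of the 3 tested fibroblast markers Pdgfra (24.9 to 26.8 against 8.25 to 12 FPM) and Lum (6.6 to 10.1 against 0.809 to 1.75 FPM) were higher too, and Dcn was not called. Of the 6 myogenic markers Des (820 to 1010 against 64.2 to 92 FPM), Myod1, Myog and Chrna1 were higher and Myf5 (20 to 34.4 against 95 to 110 FPM) was lower. Of the 2 tested leukocyte markers Lyz2 was higher and Cd68 lower. The part of these markers in the result was not tested.

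Iigp1, at 730, 426 and 264 FPM in control DM3, stood at 0.712, 1.49 and 0.917 FPM in MUNC genomic DM3, a log2 difference of -7.76 ± 0.778 (SE; limma adjusted p = 6.5e-07). The ratio of the mean levels was 455. Gbp7 stood at 0.970, 1.60 and 0.859 FPM and Gbp3 at 1.33, 1.42 and 0.956 FPM. Their mean control levels were 253 and 155 times as high, and their log2 differences were -7.04 ± 0.562 and -6.35 ± 0.474 (SE; limma adjusted p = 3.88e-08 and 1.73e-08). All 3 genes were thus close to 1 FPM in a medium where control cells held them above 100 FPM.

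Mx1 had no read in any of the 6 MUNC genomic libraries. At a floor of 3 reads per library, which is at most 0.0594 FPM in MUNC genomic DM3, control DM3 cells were at least 417-fold higher and MUNC spliced DM3 cells at least 268-fold higher. In GM the mean control level was at least 27.3-fold higher, against a floor of at most 0.063 FPM, and at least 5.27-fold higher without control GM replicate 2. Floors cover counting error only, since reads not tagged by molecule may be copies of one another. Mx2 was at 20, 24 and 32 reads in MUNC genomic DM3, or 0.396, 0.361 and 0.624 FPM, against 4415 to 5639 reads in control DM3, and its log2 difference was -5.99 ± 0.626 (SE; limma adjusted p = 1.02e-06).

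Other members kept a measurable level. Irgm2 stood at 8.15, 8.33 and 8.76 FPM, Igtp at 6.49, 5.33 and 5.25 FPM and Tgtp1 at 2.22, 3.07 and 3.2 FPM in MUNC genomic DM3. Gbp2 stood at 12, 14.6 and 10.8 FPM, within the range of control GM. Irgm1 stood at 92.9, 82.8 and 85.1 FPM, also within the control GM range, and had the smallest difference from control DM3, -2.13 ± 0.224 on the log2 scale (SE; limma adjusted p = 1.08e-06). The remaining differences ran from -5.09 for Irgm2 and -5.04 for Igtp to -4.29 for Tgtp1 and -2.96 for Gbp2, with limma adjusted p of 0.000117 or less.

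The same line was also lower in GM for most members. Of the 10, 7 fell below control, where 14.5% of tested genes were called lower. They were Gbp7, at 0.0859, 0.338 and 0.126 FPM against 3.26 to 33.6 FPM in control (log2 difference -3.25 ± 0.562, limma adjusted p = 0.000409), and Irgm2, Iigp1, Igtp, Mx2, Gbp3 and Gbp2, with log2 differences from -3.2 to -1.77. The libraries did not overlap for 8 members, the 7 and Mx1, against 21% of tested genes in the lower direction. Mx1, Tgtp1 and Irgm1 were not called, with log2 differences of -1.09 (limma adjusted p = 0.105), -0.69 (adjusted p = 0.357) and 0.26 (adjusted p = 0.445). Irgm1, at 120, 124 and 84.7 FPM in MUNC genomic GM and 73.0 to 114 FPM in control GM, was the one member whose mean was not lower. Here 8 members, the 7 and Mx1, had an adjusted p under 0.05 in the authors' deposited table, where 19.9% of genes with an adjusted p did. The same 8 were called by edgeR (28.2% of tested genes) and by DESeq2 (31.4%), with adjusted p = 0.0115 and 1.58e-05 for Mx1. With only the 2 groups compared in the fit, 4 members were called, and 18.2% of tested genes. Of the markers, Cdh5, Pdgfra, Des, Myod1 and Chrna1 were higher and Myf5 and Cdh15 lower in this comparison, and their part was not tested.

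**Figure D3:**
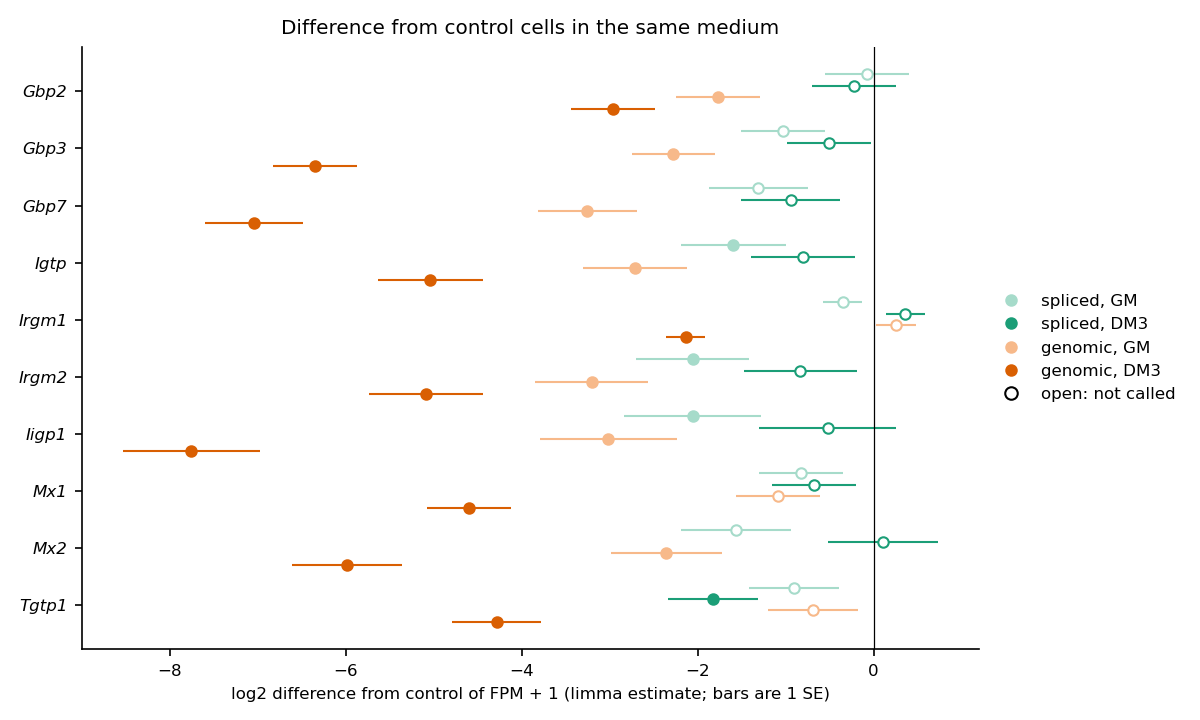
Difference of each MUNC line from control cells in the same medium, as the limma log2 difference of FPM + 1 with bars of 1 SE (filled points called, open points not called). The MUNC genomic DM3 points lie from -7.76 for Iigp1 to -2.13 for Irgm1, and the MUNC spliced DM3 points run from -1.82 for Tgtp1 to 0.36 for Irgm1, with Tgtp1 called.

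Whether the MUNC genomic line still raised these genes on differentiation was asked next. Of the 10 members, 3 rose from GM to DM3 within the line, where 26.3% of tested genes were called higher. Gbp2 went from 0.802, 1.2 and 1.53 FPM to 12, 14.6 and 10.8 FPM, a log2 change of 2.63 ± 0.479 (SE; limma adjusted p = 0.000272). Irgm2 went from 0.773, 0.996 and 0.147 FPM to 8.15, 8.33 and 8.76 FPM, and Igtp from 0.658, 1.03 and 0.252 FPM to 6.49, 5.33 and 5.25 FPM. Their log2 changes were 2.56 ± 0.646 and 2.05 ± 0.593 (SE; limma adjusted p = 0.00352 and 0.0087). The other 7 were not called, although every DM3 library was above every GM library for 8 of the 10, against 32.5% of tested genes. The exceptions were Mx1, at 0 throughout, and Irgm1, with a log2 change of -0.31 and overlapping libraries (limma adjusted p = 0.263).

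The count of 3 changed with the scale and with the samples in the fit. Adding 1 FPM before taking logs shrinks changes that happen below 1 FPM, such as Iigp1 from 0.0143, 0.186 and 0.0210 FPM to about 1 FPM. With a pseudocount of 0.1 in place of 1, 7 members were called higher, with DESeq2 on the recovered reads 7, and with only the 2 groups in the fit 8. edgeR called 4, the 3 and Gbp7 (log2 change 2.64, adjusted p = 0.0371). In either direction these fits called 52.3% of tested genes with the pseudocount of 0.1, 54.1% with DESeq2, 52.4% with only the 2 groups and 51.5% with edgeR.

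**Figure D4:**
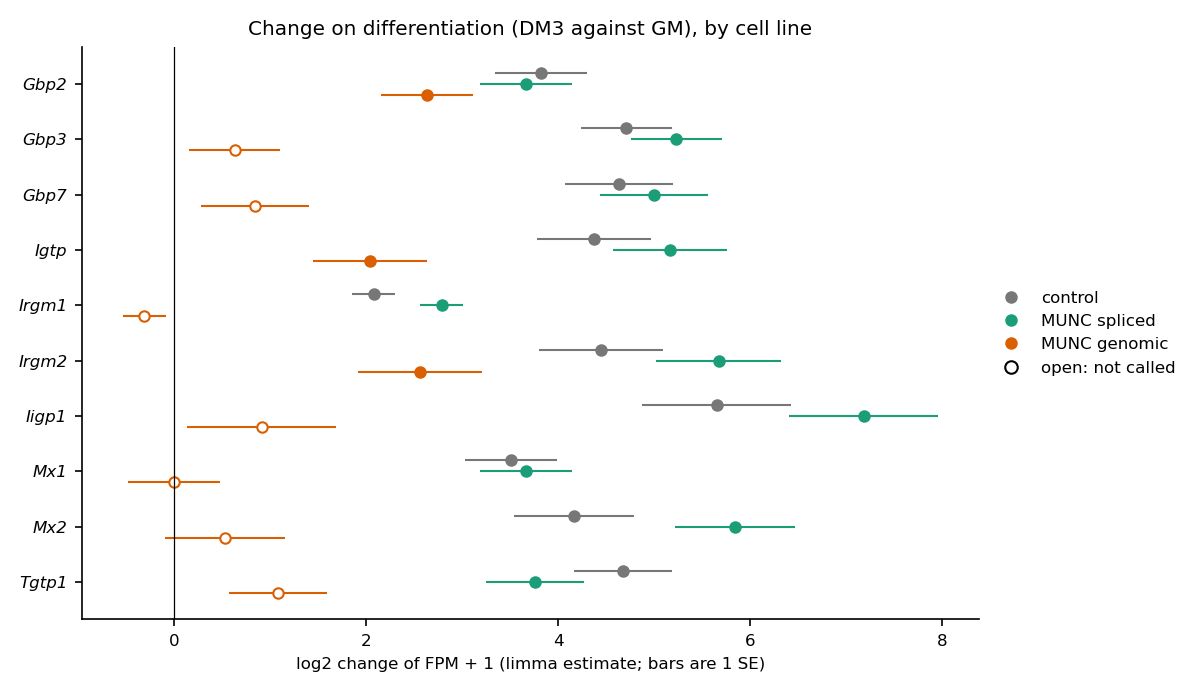
Change of each member from GM to DM3 in control, MUNC spliced and MUNC genomic cells, as the limma log2 change of FPM + 1 with bars of 1 SE (filled points called, open points not called). All 10 points of the control and of the MUNC spliced cells are called, from 2.08 to 5.65 and from 2.79 to 7.19, whereas in MUNC genomic cells Gbp2, Irgm2 and Igtp are called.

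The difference between the lines in their response was tested as an interaction, on 2 scales that did not give the same count. On log2(FPM + 1), 7 of the 10 members changed less in MUNC genomic than in control cells, where 5.25% of tested genes were called in that direction. They were Iigp1 (-4.74 ± 1.10), Gbp3 (-4.08 ± 0.670), Gbp7 (-3.79 ± 0.795), Mx2 (-3.64 ± 0.886), Tgtp1 (-3.60 ± 0.721), Mx1 (-3.51 ± 0.676) and Irgm1 (-2.39 ± 0.317; SE, limma adjusted p = 0.0166 or less for each). On the scale of count ratios edgeR called 1 member, Irgm1 (-2.41, adjusted p = 0.00053), and DESeq2 called 2, Irgm1 and Gbp3 (-3.08, adjusted p = 0.0126), where edgeR called 5.60% and DESeq2 9.19% of tested genes in either direction. The value for Mx2 changed sign there, to 1.55 with edgeR (adjusted p = 0.837), on 2 reads in all of MUNC genomic GM.

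Ratios of the mean levels in DM3 and GM were compared for the same 2 lines. Irgm2 rose 14.6-fold in control and 13.2-fold in MUNC genomic cells, and Gbp2 13.2-fold and 10.6-fold, from a lower base in the MUNC genomic line. The interaction on the ratio scale was -0.19 for Irgm2 and -0.29 for Gbp2 (edgeR adjusted p = 0.958 and 0.885). Iigp1 had ratios of 30.8 and 14.1, Igtp of 16.3 and 8.80, and Gbp7 of 19.1 and 6.23. Gbp3 (23.9 and 2.85), Tgtp1 (29.9 and 3.25) and Irgm1 (4.29 and 0.794) had the most unequal ratios. Mx2 had ratios of 11.7 in control and, over the summed reads, 39.9 in MUNC genomic cells, where 2 reads in GM give a 95% exact Poisson interval of 10.7 to 336 (counting error only). The control ratios of all members but Irgm1 rested on GM replicate 2. Without it they rose to 45.5 for Irgm2, 26.5 for Gbp2, 109 for Iigp1, 38.8 for Igtp, 48.7 for Gbp7, 55.2 for Gbp3, 83.6 for Tgtp1 and 51.8 for Mx2. Without MUNC genomic GM replicate 2 the ratio in that line was 10.8 for Gbp7 and 5.61 for Tgtp1, and for Iigp1, with 2 reads left in GM, 63.6 over the summed reads (interval 17.3 to 529). Irgm1 was the member called for this difference by limma, edgeR and DESeq2 alike.

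Cells overexpressing spliced MUNC also raised these genes. All 10 members rose from GM to DM3, where 17.2% of tested genes were called higher, with log2 changes from 2.79 ± 0.224 for Irgm1 to 7.19 ± 0.778 for Iigp1 (SE; limma adjusted p = 6.12e-05 or less for each). Iigp1 went from 0.126, 5.15 and 0.307 FPM to 244, 420 and 270 FPM, and Mx2 from 0.202, 3.04 and 0.0902 FPM to 86.8, 114 and 98.5 FPM. Irgm1 went from 87.9, 80.1 and 49.8 FPM to 428, 564 and 499 FPM. For all 10 genes DM3 replicate 1 was the lowest and replicate 2 the highest of the group. The interaction with control was called for none of the 10 with limma (1, Irgm1, at an unadjusted p under 0.05), none with edgeR and none with DESeq2, where limma called 14.4% of tested genes in either direction. The intervals were wide, for example -0.80 to 3.86 for Iigp1 (95%).

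In DM3 the MUNC spliced line differed from control in 1 member. Tgtp1 fell, from 86.4, 95.7 and 47.2 FPM in control to 8.62, 41.2 and 21.7 FPM, a log2 difference of -1.82 ± 0.510 (SE; limma adjusted p = 0.00863), where 21% of tested genes were called lower. The call was lost without MUNC spliced DM3 replicate 1 (0 members called), with edgeR (adjusted p = 0.0576) and with DESeq2 (adjusted p = 0.077), and the split of reads with Tgtp2 applies. Gbp7, at 91.6, 183 and 179 FPM, and Irgm2, at 143, 218 and 185 FPM, lay below every control DM3 library without being called (-0.94 and -0.83, limma adjusted p = 0.19 and 0.318). Including Tgtp1, 3 members had libraries that did not overlap with control, as did 26.1% of tested genes in the lower direction. For Irgm1 and Mx2 the means were 497 ± 67.8 and 99.6 ± 13.4 FPM, against 393 ± 101 and 92.2 ± 14.2 FPM in control (SD, n = 3 each). The authors' deposited table gave 4 members an adjusted p under 0.05 here, Gbp7, Igtp, Irgm2 and Tgtp1, among 33.1% of genes. Of the markers, Myod1, Myog, Cdh15, Chrna1, Tek and Lyz2 were higher and Cd68 lower, and their part was not tested.

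In GM the calls for the MUNC spliced line against control depended on single libraries and on the fit. Igtp (2.22, 6.40 and 0.812 FPM), Irgm2 (1.36, 8.45 and 0.974 FPM) and Iigp1 fell below control, with log2 differences of -1.59 ± 0.593, -2.06 ± 0.646 and -2.06 ± 0.778 (SE; limma adjusted p = 0.0464, 0.0211 and 0.0496), where 17.3% of tested genes were called lower. Taken without regard to replicate number, libraries overlapped for all 10 members, while 21.7% of tested genes had every MUNC spliced library below control. Within same-numbered pairs these called genes were lower than control in each replicate. Control GM held Igtp at 9.36, 30.7 and 2.61 FPM and Irgm2 at 10.4, 53.3 and 4.15 FPM. The other members were also lower in each pair, Irgm1 barely so in replicate 1, except Gbp2 in replicate 3 (4.02 against 2.52 FPM). None of the 10 was called without control GM replicate 2, without MUNC spliced GM replicate 1 or without MUNC spliced GM replicate 3, and 1 without control GM replicate 1. Without control GM replicate 3 or MUNC spliced GM replicate 2, 6 were called. With the replicate number as a block, which pairs these libraries, 6 were called (46.6% of tested genes), with edgeR and DESeq2 7 each (36.9% and 39.3% of tested genes in either direction), with equal sums 1 (35.3%), and with no filter (19.0%) or only the 2 groups in the fit (24.7%) none. In the authors' deposited table no member had an adjusted p under 0.05, against 25.3% of genes.

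Set directly against each other, the 2 overexpressing lines differed in all 10 members in DM3, each higher in MUNC spliced cells, where 23.4% of tested genes were called in that direction. The log2 differences ran from 2.46 for Tgtp1 to 7.23 for Iigp1 (limma adjusted p = 0.00093 or less for each), and no libraries overlapped, as for 29.9% of tested genes in that direction. In GM, Gbp7 and Gbp2 were higher in MUNC spliced cells (1.94 ± 0.562 and 1.69 ± 0.479, limma adjusted p = 0.0129 and 0.0113), where 19.9% of tested genes were. Irgm1 was lower (-0.61 ± 0.224, limma adjusted p = 0.0445), where 16% were. With edgeR 7 and with DESeq2 9 members were called in GM (36.7% and 39.9% of tested genes in either direction), and without MUNC spliced GM replicate 2 limma called 1.

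The order of the 6 group means differed between members, and the commonest of 7 orders held for 3, Gbp3, Gbp7 and Iigp1. Control DM3 was highest for 8 of the 10, and MUNC spliced DM3 for Irgm1 and Mx2, but the libraries of these 2 groups overlapped for all members except Gbp7, Irgm2 and Tgtp1. MUNC genomic GM was lowest for 7 members. It was above MUNC spliced GM for Tgtp1 and Irgm1, and level with MUNC genomic DM3 at 0 for Mx1. Control GM stood above both MUNC lines in GM for 9 members, the exception being Irgm1, whose order in GM was MUNC genomic (109 ± 21.5 FPM), control (91.7 ± 20.9 FPM) and MUNC spliced (72.6 ± 20.1 FPM; SD, n = 3 each), with libraries that overlap between neighbours.

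Per kilobase of exon, which allows levels to be compared between genes, Igtp was the most abundant member in control DM3, at 115 ± 51.0 FPM per kb. Irgm2 (89.6 ± 28.7), Iigp1 (81.3 ± 40.6) and Irgm1 (67.7 ± 17.4) followed, then Gbp3, Gbp7 and Gbp2 at 58.3, 51.5 and 42.4, and Mx2, Tgtp1 and Mx1 at 25.5, 23.8 and 6.54 (SD, n = 3 each). These SDs are spreads between libraries that all members share, so they do not decide the order of neighbouring members. The order within each library was not tested. In MUNC genomic DM3 the order was another, with Irgm1 at 15 ± 0.905 FPM per kb, Gbp2 at 4.95 ± 0.780, Igtp at 2.81 ± 0.343 and Irgm2 at 2.28 ± 0.0850 ahead of the rest. Irgm1 made up 16.3% to 20.2% of the members' summed FPM in control DM3, 69.6% to 74.2% in MUNC genomic DM3 and 95.5% to 97.2% in MUNC genomic GM.

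In the control and MUNC spliced groups most members moved together from library to library, but not in MUNC genomic DM3. In control GM, replicate 2 was highest and replicate 3 lowest for 10 of 10 members, and the sums were 139, 333 and 90.2 FPM. In control DM3, replicate 1 was highest for 9 and replicate 3 lowest for all 10, at sums of 3055, 2092 and 1479 FPM. In MUNC genomic DM3 no replicate led for more than 4 members, and the sums were 125, 119 and 116 FPM. Over the 18 libraries, which the members share, log2(FPM + 1) correlated at r of 0.910 to 0.996 in the 36 pairs without Irgm1 and at 0.848 to 0.927 in the 9 pairs with it. These r values include the differences between groups, so they do not measure movement within a group.

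The 6 genes outside the list whose pattern was most like the members' mean z-score over the 18 libraries were Usp18 (r = 0.995), which removes the ubiquitin-like modifier ISG15, Ifi44 (0.995), Rtp4 (0.993), Sp100 (0.992), a nuclear body protein, Oasl2 (0.990), of the oligoadenylate synthetase family, and Trim34a (0.989). Ifi44 in DM3 averaged 999 FPM in control, 430 FPM in MUNC spliced and 1.45 FPM in MUNC genomic cells. Usp18 averaged 278, 135 and 1.49 FPM in the same groups.

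The other GTPases of the same families were counted in the same comparisons. Of 19 listed, 17 were found and 14 tested, and all 14 rose in control DM3 (median log2 change 3.50). Of all tested genes 29.6% were called higher in control DM3. Gbp9 reached 69.8 ± 25.6 FPM there from 0.367 ± 0.372 FPM, and the gene deposited as Gbp6, which GENCODE M21 calls Gm43302, reached 54.7 ± 26.1 FPM from 1.45 ± 1.64 FPM (SD, n = 3 each). All 14 fell below control in MUNC genomic DM3 (median -3.87), where 20.9% of tested genes were called lower. On the log2(FPM + 1) scale 13 of 14 changed less on differentiation in that line than in control, against 5.25% of tested genes. Adding 1 FPM shrinks the changes of those below 1 FPM in that line. Their interaction on the scale of count ratios is not given here. Gm4951 and Gm4841, which lie near Iigp1 on chromosome 18, had 10602 and 1342 reads in control DM3 and none in MUNC genomic DM3. Of the 14, 3 still rose in MUNC genomic cells, where 26.3% of tested genes were called higher. They were Ifi47 (2.82 ± 1.79 to 10.3 ± 1.97 FPM), Tgtp2 (0.5 ± 0.627 to 3.30 ± 0.658 FPM) and the gene deposited as Gbp5, called Gbp2b in GENCODE M21 (0.696 ± 0.321 to 7.97 ± 0.739 FPM; SD, n = 3 each). 9930111J21Rik1 and 9930111J21Rik2 fell there (limma log2 change -0.96 with adjusted p = 0.0154, and -1.28 with adjusted p = 0.00462), while they rose in control.

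Genes listed as transcription factors and regulators of the interferon response were compared next, and 7 are given here. Their binding to these promoters was not measured. All 7 rose in control DM3 and in MUNC spliced DM3, and 5 in MUNC genomic DM3 (Stat2, Stat3, Irf1, Irf7 and Irf9). Over all tested genes 29.6%, 17.2% and 26.3% were called higher in the same comparisons, in that order. Irf7, itself induced by interferon, stood in DM3 at 626, 583 and 510 FPM in control cells, at 115, 222 and 193 FPM with spliced MUNC and at 4.55, 4.91 and 6.79 FPM with genomic MUNC. Stat2 averaged 521 ± 9.00, 383 ± 94.0 and 58.8 ± 10.4 FPM in these groups, and Irf9 142 ± 4.52, 99.8 ± 14.3 and 18.7 ± 3.05 FPM (SD, n = 3 each). Nlrc5, the regulator of class I antigen presentation genes, averaged 9.58 ± 4.83, 7.30 ± 2.62 and 0.368 ± 0.146 FPM. Irf7, Stat2, Irf9, Nlrc5 and Irf2 fell below control in MUNC genomic DM3 with limma, where 20.9% of tested genes were called lower.

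Irf1 and Stat3 were not called there. Irf1, which binds ISRE-type elements, stood at 176, 151 and 133 FPM in MUNC genomic DM3 and at 155, 155 and 156 FPM in control DM3 (log2 difference -0.03, 95% interval -0.59 to 0.54, limma adjusted p = 0.949). It rose on differentiation in both, by 1.34 and 1.26 on the log2 scale. In MUNC spliced DM3 Irf1 was lower than in control, at 79.0, 115 and 84.4 FPM (-0.76, limma adjusted p = 0.0307). The part of Irf1 in the levels of the GTPase genes was not tested. Stat3 differed from control by -0.36 in MUNC genomic DM3 (limma adjusted p = 0.0908). Irf8 had 1 read in all 18 libraries together.

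**Figure D5:**
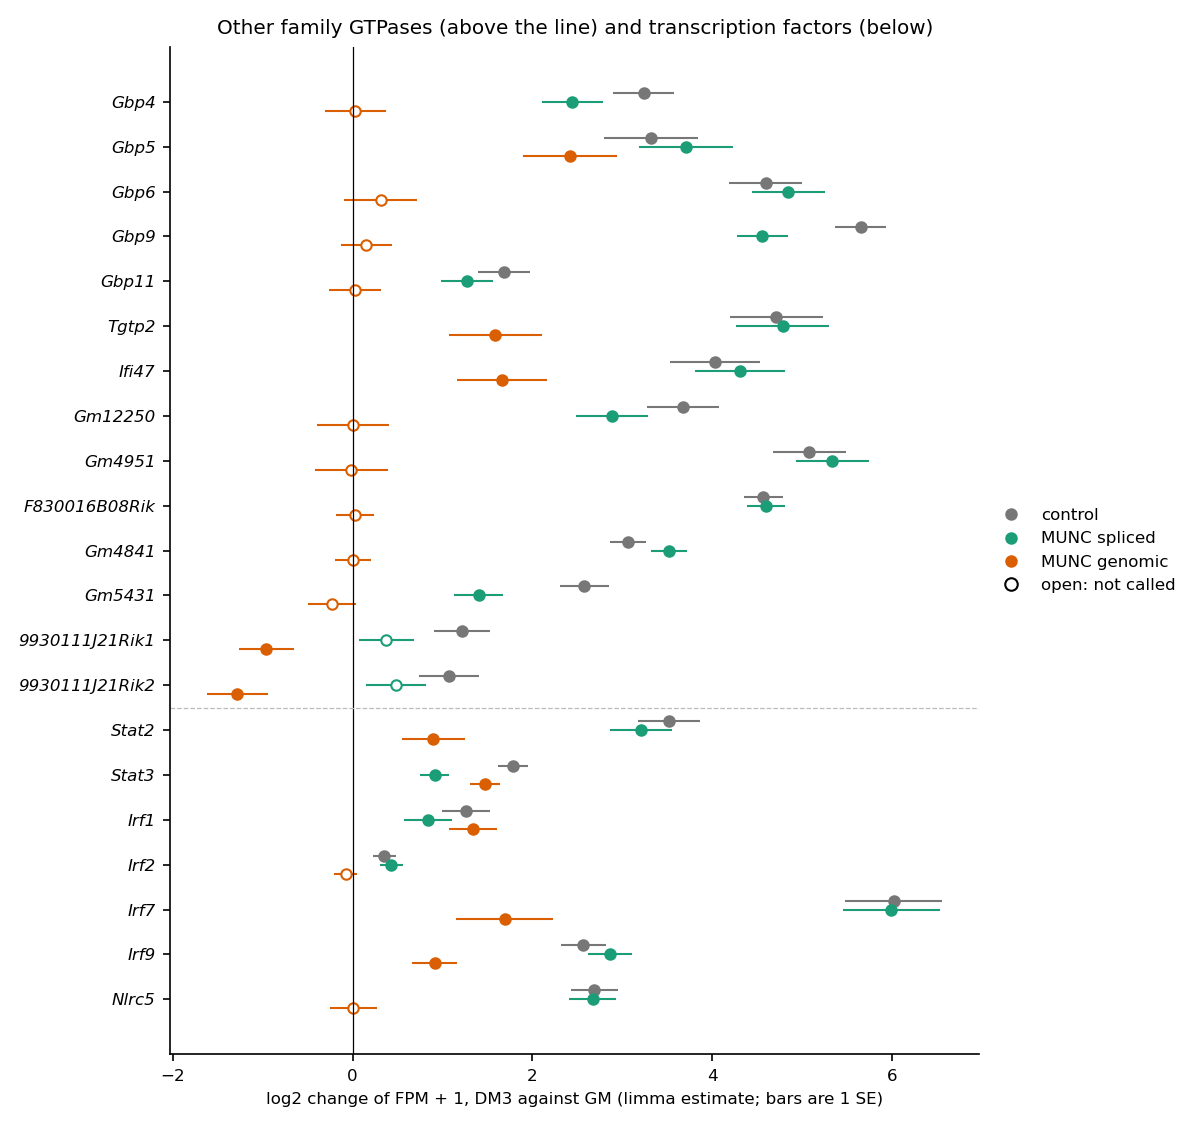
Change from GM to DM3 of the 14 other tested family GTPases (above the dashed line) and 7 transcription factors (below it) in the 3 kinds of cells, as the limma log2 change of FPM + 1 with bars of 1 SE (filled points called, open points not called). In MUNC genomic cells most GTPases stay near 0, on a scale that shrinks changes below 1 FPM. Stat3 and Irf1 change there by 1.47 and 1.34, against 1.78 and 1.26 in control.

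Upstream of the factors, none of the 10 listed interferon genes passed the filter. Ifnb1 had 9, 5 and 10 reads in the control DM3 libraries, 7, 9 and 10 in MUNC spliced DM3 and none in MUNC genomic DM3, where 3 reads per library is the floor. Ifng had none in control cells and 34, 22 and 10 in MUNC spliced DM3. It also had 8 in MUNC spliced GM replicate 1 and 1 in MUNC genomic DM3 replicate 3. Transcripts at this depth say nothing of interferon protein, which was not measured. Of the receptors and kinases 8 of 9 were tested, and in control DM3 5 rose by 0.32 to 0.83 on the log2 scale (Ifnar1, Ifnar2, Ifngr1, Jak2 and Tyk2). Over all tested genes 29.6% were called higher in control DM3. In MUNC genomic DM3 none of the 8 was below control and 2 were above it, Ifngr1 (0.92) and Il10rb (0.44; limma adjusted p = 0.000111 and 0.0464). Over all 13869 tested genes, 5586 were called there in either direction, and 20.9% of tested genes were called lower.

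Of 7 feedback inhibitors 4 rose in control DM3, Usp18, Socs3, Pias1 and Socs1, and 1 was called lower. Over all tested genes 29.6% were called higher in control DM3. Against control, 3 of the 7 were called lower in MUNC genomic DM3 and 1 higher, Ptpn6 (1.36), where 20.9% of tested genes were called lower. Among the lower were Usp18 (-6.74) and Socs1 (-0.98), a brake on Janus kinases. Socs3 (0.31) did not differ beyond its spread with limma (adjusted p = 0.358). Autophagy conjugation proteins, which direct the GTPases to vacuoles, were measured with 14 genes. Of these Map1lc3a, Map1lc3b and Atg12 rose by more than 1 on the log2 scale in control DM3, and so did the ubiquitin ligase Trim21 (2.57), an interferon-induced gene. Against control in DM3, MUNC genomic cells had 5 of the 14 called higher and 3 lower. Over all 13869 tested genes, 5586 were called there in either direction, and 20.9% of tested genes were called lower. Trim21 (-2.08), Atg12 (-0.96) and Traf6 (-0.32) were lower, and Gabarapl2 (0.84), Atg5 (0.57), Map1lc3b (0.37), Atg7 (0.35) and Atg3 (0.30) were higher. Map1lc3a was at 416, 362 and 347 FPM in MUNC genomic DM3 and at 142, 184 and 170 FPM in control DM3, without overlap, but was not called (1.18, limma adjusted p = 0.0604). Of the 10 dynamin relatives that interferon does not induce, Dnm1 (1.41) and Atl1 (1.38) rose by more than 1 in control DM3, and their summed level was 944 to 967 FPM in control DM3 and 1060 to 1100 FPM in MUNC genomic DM3.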

How the data were processed

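Polyadenylated RNA of 18 libraries was sequenced on an Illumina instrument, per the labels. The submitters' processing notes name STAR, HTSeq, DESeq2 and the build mm10, without roles, and the annotation is not given in the sources used here. The expression file that the authors deposited holds a normalized signal (FPM), not divided by gene length. Each library's values were whole multiples of 1 step for 100% of values (within 0.05 of a read, largest deviation 0.0342), so reads per gene and depth could be recovered. FPM summed to 946834 to 1048477 per library. In addition, 5 comparison tables deposited by the authors hold log2 fold changes, p-values and scores, with headers of the kind DESeq2 writes. The scores were not used here, and gene symbols were taken from one of these tables. The number of sample columns left unused was 0.

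Groups came from the sample titles, and in 9 of the 18 samples the source label disagreed with the title on the cell stage. The members and gene lists were chosen with earlier results of these data known. The naming rule took all 10 members in every comparison. It also took listed genes called with an absolute log2 change of at least 1 in control DM3 against GM or in MUNC genomic against control in DM3, other family GTPases that reached 1 FPM in any library, and the 6 genes most correlated with the members' mean z-score. Further genes named were chosen after their values were seen.

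Differences were tested with limma 3.58.1 (R 4.3.3, lmFit and eBayes with trend) on log2(FPM + 1), which understates changes of low genes. The filter required 0.5 FPM in 3 libraries and left 13869 genes. All 18 libraries entered 1 fit with 12 residual degrees of freedom and 11 comparisons. Calls were made at a Benjamini-Hochberg adjusted p under 0.05 over all tested genes. Comparisons that share control libraries are given side by side. Alternatives were edgeR 4.0.16 (quasi-likelihood, TMM) and DESeq2 1.42.0 on the recovered read counts, other pseudocounts, no filter, other scalings, only the groups compared, a replicate block and left-out libraries. The limma procedure was run on simulated counts with the same dispersion for every gene and independent libraries. That setting lacks the replicate pairing and unequal spread of these data, so it does not measure the error rate for these genes. No 2 replicates agreed within sampling noise (chi-square per degree of freedom 33.5 or more).

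Same-numbered libraries deviated together (every correlation over 0.1) among the 3 kinds of cells in GM, between control GM and DM3, and between control and each MUNC line in DM3, and the number was taken to pair libraries there. Over all 45 same-numbered pairs the correlation was -0.0569 to 0.727, and 36 were above 0.1. The main fit had no replicate block, so its SE and p-values did not use the pairing. With the block, limma called 5190 tested genes for MUNC genomic against control in GM, and 3711 without it.

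Gene positions are from GENCODE M21 (GRCm38) and promoter windows from RefSeq (GRCm38.p6). Protein sequences were not used here, and 1 gene of the list of transcription factors is not reported.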

Additional observations from a re-analysis of the deposited data

Results flagged for a closer look

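For 7 of the 10 members the response to differentiation differed between MUNC genomic and control cells by the interaction test with limma on log2(FPM + 1). The difference in log2 change was -4.74 for Iigp1 (adjusted p = 0.0122), -4.08 for Gbp3 (0.000983), -3.79 for Gbp7 (0.00646), -3.64 for Mx2 (0.0166), -3.60 for Tgtp1 (0.0047), -3.51 for Mx1 (0.00341) and -2.39 for Irgm1 (0.000162). On the scale of count ratios Irgm1 was called by both edgeR and DESeq2 and Gbp3 by DESeq2, and the other 5 by neither.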

How the results depend on the processing

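All 10 members were called under every alternative for control DM3 against GM, MUNC spliced DM3 against GM, MUNC genomic against control in DM3 and MUNC spliced against MUNC genomic in DM3. For MUNC genomic DM3 against GM the count of 3 became 7 with a pseudocount of 0.1, 7 with DESeq2 and 8 with only the groups compared. For MUNC spliced against control in GM it was 3, and 0 with no filter, 1 with equal sums, 6 with quantile normalization, 7 with edgeR, 7 with DESeq2, 0 with only the groups compared, 6 with the replicate block and 0 to 6 with 1 library left out. For MUNC genomic against control in GM it was 7, 4 with only the groups compared and 6 to 8 with 1 library left out. For MUNC spliced against control in DM3 it was 1, 0 with edgeR or DESeq2, 2 with only the groups compared and 0 to 1 with 1 library left out (0 without MUNC spliced DM3 replicate 1). For MUNC spliced against MUNC genomic in GM it was 3, 7 with edgeR, 9 with DESeq2 and 1 to 3 with 1 library left out (1 without MUNC spliced GM replicate 2). The interaction of MUNC genomic with differentiation gave 7, 4 with a pseudocount of 0.1, 1 with edgeR, 2 with DESeq2 and 7 to 9 with 1 library left out. The interaction of MUNC spliced gave 0, 1 with the replicate block and 0 to 1 with 1 library left out (1 without control GM replicate 3). The replicate block moved the other counts by at most 1 member. The cause of these changes was not tested.

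Values that changed sign were not called by limma, apart from Mx2 in the MUNC genomic interaction (1.55 with edgeR, 1.88 with DESeq2). With 1 library left out, Gbp2 in MUNC spliced against control ran from -0.60 to 0.54 in GM and from -0.48 to 0.12 in DM3, and with equal sums it was 0.025 in GM. Tgtp1 in MUNC spliced against MUNC genomic in GM ran from -0.43 to 0.050. In the MUNC spliced interaction Gbp2 gave 0.026 with quantile normalization, 0.091 with edgeR, 0.050 with DESeq2 and -0.77 to 0.38 with 1 library left out, and Tgtp1 gave 0.50 with edgeR and 0.46 with DESeq2. With 1 library left out, Gbp3 ran from -0.17 to 1.06, Gbp7 from -0.45 to 1.07 and Mx1 from -0.54 to 0.61 there.

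A floor of 3 reads was 0.0429 to 0.0757 FPM per library, and lower levels were not resolved. The number of replicates, 3 per group, limits the precision of every difference.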
